A study of Homo sapiens with 8 samples.

Results

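HOXD13, HOXD11, HOXD10, HOXD9, HOXD8, HOXD4 and HOXD3, the posterior and middle genes of the HOXD cluster, were followed in SK-N-MC, an established cell line of Ewing sarcoma (EwS). They were chosen by symbol as HOXD genes known for high expression in EwS, and make up 7 of the 60332 genes with deposited expression values. Each symbol matched 1 gene, and all 7 passed the filter on low values, which left 15372 genes for testing. The RNA-seq data hold 8 libraries in 4 groups of 2, and, by the submitters' growth notes, all groups came from cells transduced with a lentiviral vector for dCas9-KRAB, a dead Cas9 fused to a repressor domain, as polyclonal puromycin-selected pools. By the same notes, control cells carried that vector without a guide, whereas the study's text calls the controls parental. They were grown either in normoxia or in hypoxia, which here means 1% oxygen for 16 h. The eKD1 and eKD2 pools each carried their own guide, which sent the repressor to the GGAA-repeat enhancer of LOXHD1, a stereociliary protein gene on another chromosome, and both were analysed here in hypoxia only. The separate effect of the guides in normoxia, and whether the response to oxygen differs with them, was therefore not analysed here. The duplicates are described in the study as biological, but the p-values measure only the spread between 2 libraries.

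HOX genes encode homeodomain transcription factors that give cells their position along the body axis and the limb. They lie in 4 clusters, A to D, in which genes with the same number are paralogues, and the order of the genes along the chromosome follows the order in which they are switched on in the embryo, with the high numbers used last and furthest towards the tail and the digits. Within the HOXD cluster, HOXD13 and its neighbours are controlled by distant enhancers on either side of the cluster and by polycomb repression, and HOXD13, HOXD11 and HOXD10 pattern the distal limb. In EwS, the posterior HOXD genes are known to be highly expressed, and HOXD13 is known as a target of the EWSR1::FLI1 fusion protein.

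The 7 genes lie on the plus strand of chromosome 2 within 80.4 kb (GRCh37, GENCODE). HOXD13 comes first, at 176957449 to 176960672. HOXD11 lies at 176968944 to 176974482 and overlaps the start of HOXD10, at 176973518 to 176984665, so that 21.4% of the exonic bases of HOXD11 and 18.2% of those of HOXD10 are shared between them. HOXD9 follows at 176987447 to 176989665 and HOXD8 at 176994422 to 176997423. HOXD4, at 177016278 to 177017954, sits within the annotated span of HOXD3, at 177001340 to 177037830, with no exonic base in common. The antisense transcript HOXD-AS2 covers 24.4% of the exonic bases of HOXD8, and it and other transcripts cover 14.1% of those of HOXD3. The library kit does not mark the strand and the quantification shares reads out between overlapping genes, so the levels of HOXD11, HOXD10, HOXD8 and HOXD3 carry that uncertainty. HOXD13, HOXD9 and HOXD4 share no exonic base with another gene.

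The results below turn most on HOXD13 and HOXD10, with HOXD11 between them, and the 250 bases before their start sites (RefSeq, GRCh38.p14, plus strand, 5′ to 3′) are printed to show the sequence these neighbours carry. The capitals mark ACGTG and GCGTG on either strand, the letters that the hypoxia-inducible factors (HIFs) are known to read. HOXD13 is shown at chr2:176092471-176092720, HOXD10 at chr2:176116528-176116777 and HOXD11 at chr2:176107030-176107279.
HOXD13: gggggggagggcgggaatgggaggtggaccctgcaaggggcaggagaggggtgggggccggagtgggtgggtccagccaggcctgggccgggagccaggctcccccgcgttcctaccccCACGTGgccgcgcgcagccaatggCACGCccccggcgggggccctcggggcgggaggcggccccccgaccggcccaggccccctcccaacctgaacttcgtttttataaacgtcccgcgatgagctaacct
HOXD10: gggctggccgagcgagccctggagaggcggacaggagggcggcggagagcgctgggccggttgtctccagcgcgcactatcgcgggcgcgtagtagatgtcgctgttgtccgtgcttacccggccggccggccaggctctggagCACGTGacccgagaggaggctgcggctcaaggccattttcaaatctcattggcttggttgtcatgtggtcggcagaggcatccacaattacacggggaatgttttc
HOXD11: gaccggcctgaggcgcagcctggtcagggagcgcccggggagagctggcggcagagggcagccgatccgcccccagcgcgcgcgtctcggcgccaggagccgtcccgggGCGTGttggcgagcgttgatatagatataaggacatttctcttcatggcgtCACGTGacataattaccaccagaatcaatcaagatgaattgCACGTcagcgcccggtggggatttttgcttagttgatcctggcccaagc
Each of the 3 holds ACGTG, first met at 131 bases before the start in HOXD13, 106 in HOXD10 and 90 in HOXD11, and there each time as part of the palindrome CACGTG, which is also the E-box of other factors. GC content was 74.0% for HOXD13, 64.0% for HOXD10 and 61.6% for HOXD11. Among the RefSeq windows of 300 bases around the start sites, 6 of the 7 genes had an entry (HOXD9 had none). ACGTG was present in 5 of these 6 windows (HOXD13, HOXD11, HOXD10, HOXD4 and HOXD3), and in 21.4% of all 35116 windows. GCGTG was present in 4 of 6 (HOXD13, HOXD11, HOXD8 and HOXD3), against 36.5% of all windows. The GGAA repeat that the fusion protein is known to bind, searched as GGAAGGAA, was in 0 of 6 against 3.7% of all windows. These matches are letters in a window and describe no binding, and the windows compared were not matched for GC content.

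Across the 8 libraries the total was 865107 to 1041460 FPKM (the deposited unit, fragments divided by transcript length and library depth) and the depth relative to the deepest library was 55.7% to 100%, while the absolute depth is unknown. Across genes, r was 0.954 to 0.963 within a pair of duplicates and 0.920 to 0.956 between groups. LOXHD1, the target of the guides, stood at 155.8 and 168.5 FPKM in control normoxia, 93.0 and 91.1 in control hypoxia, 17.3 and 15.0 in eKD1 and 11.7 and 11.8 in eKD2. All 4 eKD libraries were below all 4 controls, which checks the labels of guide against control. It checks neither which of the guides a library carried nor the oxygen labels. Of 8 EwS markers, all were tested, and their summed level was between 1282.7 and 1510.3 FPKM, much of it CCND1 and CD99. The sum does not show how its members changed. In control hypoxia 1 rose and 6 fell at an adjusted p under 0.05 by limma, against 32.2% of all genes. Relative to control hypoxia, 1 fell in eKD1 (LOXHD1), against 0.0651% of all genes. In eKD2 3 rose and 2 fell, LOXHD1 among the latter, against 9.61%. Among markers of other cells, CD3E, HBB and KRT5 were at 0 throughout, 2 of 3 listed endothelial markers were in the table and summed to at most 0.845 FPKM, and 3 of 3 epithelial markers to at most 8.05 FPKM. The 4 haematopoietic markers summed to 23.6 and 24.6 FPKM in control normoxia, 5.51 to 5.78 in control hypoxia, 11.3 to 11.7 in eKD1 and 14.8 to 15.1 in eKD2, nearly all of it PTPRC, which encodes the leukocyte phosphatase CD45.

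The levels of the HOXD genes did not follow their order along the chromosome. HOXD10 had the highest mean over the 8 libraries, at 55.7 FPKM, above 81.7% of the genes tested. HOXD13 followed with 35.0 FPKM, above 72.2% of the genes tested, and HOXD11 with 31.4. The ranges of HOXD13 and HOXD11 overlapped, whereas every HOXD10 value lay above every value of both. HOXD8 had a mean of 15.1 FPKM and HOXD9 of 10.6, with no overlap between their ranges. HOXD4 and HOXD3, at 4.64 and 4.61, could not be ordered. HOXD8 was above 52.2% of the genes tested, HOXD9 above 44.5%, HOXD4 above 29.4% and HOXD3 above 29.3%, so not all members were high in these cells. HOXD12, between HOXD13 and HOXD11, was far lower than either neighbour, at 0.512 to 1.68 FPKM, and HOXD1 at the far end reached at most 0.144.

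**Figure D1:**
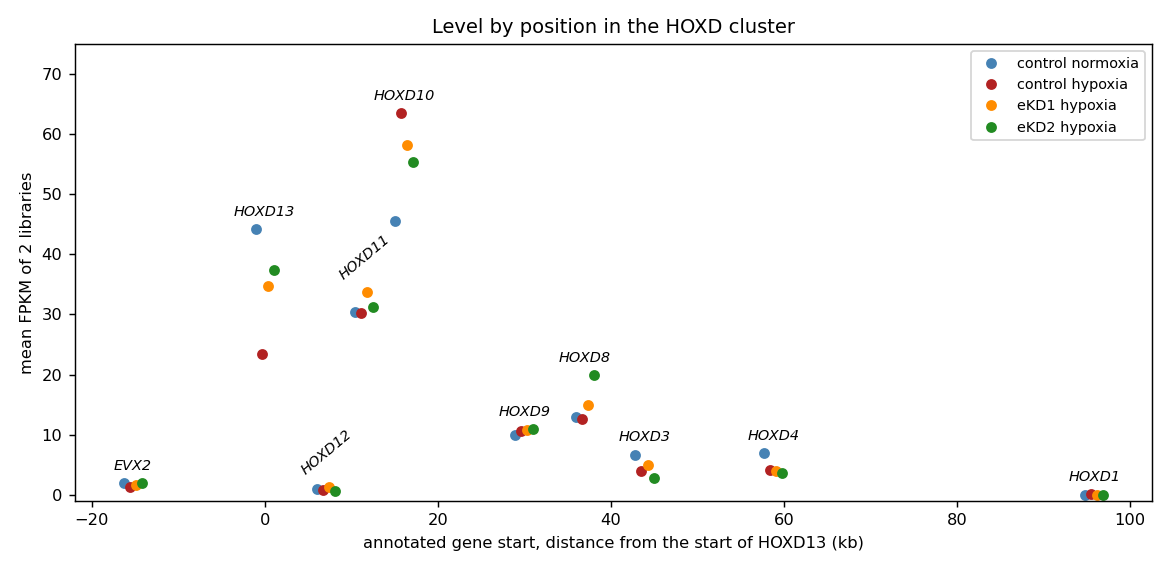
Mean FPKM of the 2 libraries of each group (vertical axis) against the annotated gene start as distance in kb from the start of HOXD13 (horizontal axis), for the HOXD genes and their neighbour EVX2; points of 1 gene are set slightly apart so that groups can be seen. HOXD13, HOXD11 and HOXD10 stand above the rest of the cluster, with HOXD12 near 0 between them, and the groups spread most at HOXD13 and HOXD10.

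In control cells, hypoxia moved the 2 most abundant HOXD genes in opposite directions: HOXD13 fell and HOXD10 rose, while HOXD11, between them, stayed within its spread. In bulk RNA, a change in the share of cells that express a gene and a change in RNA per cell cannot be told apart. This comparison asks what 16 h of low oxygen does to the cluster without a guide. HOXD13, the most posterior member, patterns digits and the genital tubercle. It stood at 44.3 and 44.2 FPKM in normoxia (44.3 ± 0.0523, SD, n = 2) and at 22.7 and 24.2 in hypoxia (23.4 ± 1.10, SD, n = 2). The groups did not overlap, and the gap was many times the difference between duplicates. On the scale of log2(FPKM + 1), HOXD13 fell by 0.89 (SE 0.0766, 95% interval of the difference -1.11 to -0.67, limma adjusted p = 0.00868). HOXD10, a limb and spinal motor neuron patterning gene, stood at 45.4 and 45.8 FPKM in normoxia (45.6 ± 0.252, SD, n = 2) and at 65.6 and 61.4 in hypoxia (63.5 ± 2.94, SD, n = 2). Both hypoxic libraries were above both normoxic ones, and HOXD10 rose by 0.47 (SE 0.0676, 95% interval 0.28 to 0.66, limma adjusted p = 0.0184). These are 2 of 7 members, beside a background of 32.2% of all genes called in this comparison (2486 higher and 2460 lower), so the share itself is no result about the cluster.

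HOXD11, which acts with its paralogues in the forelimb and kidney, stood at 32.5 and 28.3 FPKM in normoxia and 31.5 and 29.2 in hypoxia. The groups overlapped fully, with a difference of -0.0012 (95% interval -0.30 to 0.30, limma adjusted p = 0.996), so a change of the size seen for HOXD13 lies outside its interval. HOXD9, at 9.52 and 10.5 FPKM against 9.33 and 12.0, and HOXD8, at 13.5 and 12.2 against 12.6 and 12.8, also overlapped (adjusted p = 0.758 and 0.904, limma). Neither difference was larger than the spread between duplicates.

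HOXD4 and HOXD3, the most anterior of the 7 members, had low levels and wider spreads. HOXD4, a hindbrain and cervical patterning gene, stood at 5.12 and 8.68 FPKM in normoxia and 3.39 and 4.77 in hypoxia. HOXD3, which patterns the first neck vertebrae, stood at 5.34 and 8.02 FPKM in normoxia and 5.19 and 2.82 in hypoxia. For both, neither group reached into the other, but the normoxic duplicates differed as much as the group means, and neither passed the test (HOXD4 -0.61, SE 0.305, adjusted p = 0.203 and HOXD3 -0.64, SE 0.337, adjusted p = 0.225, both limma). The highest value of both genes was in control normoxia replicate 2, the library with the lowest relative depth, and the part of depth in these values was not tested. In all, 4 of 7 members had groups that did not overlap in this comparison, against 70.4% of all genes.

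**Figure D2:**
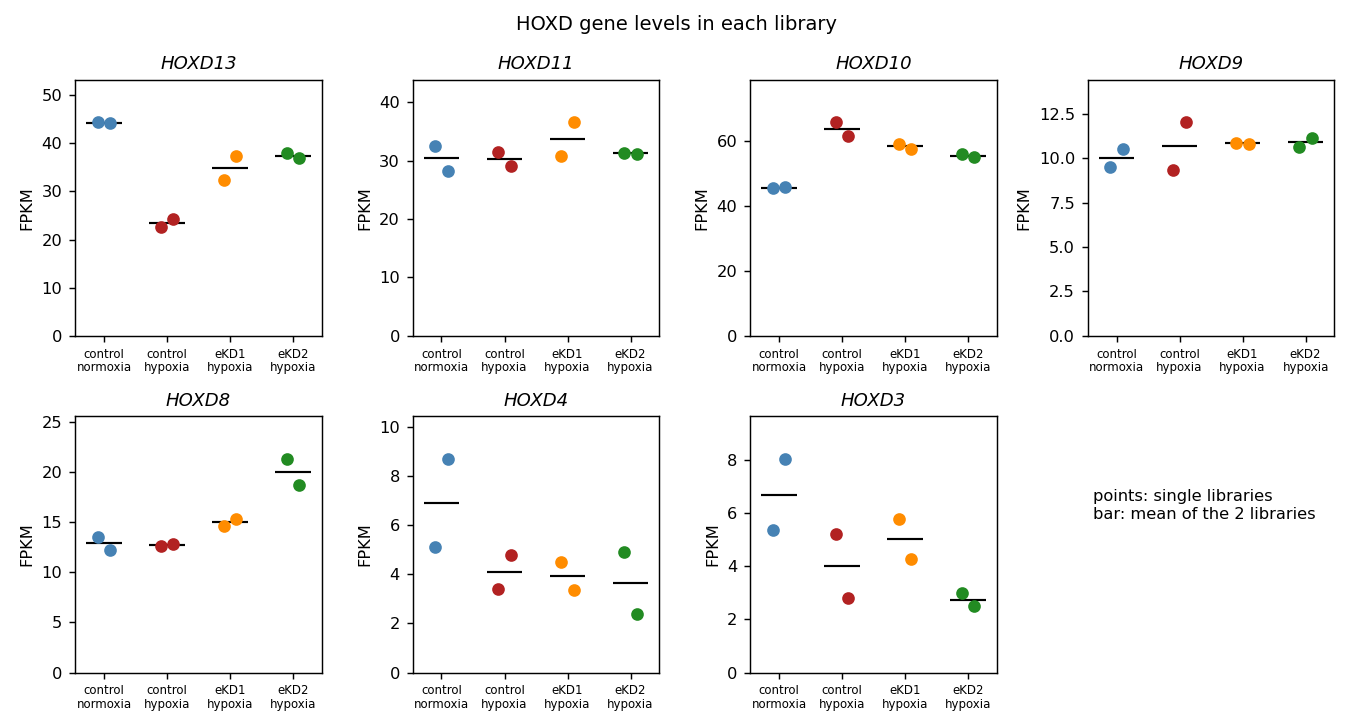
FPKM (vertical axis, from 0, scaled for each gene) of the 7 HOXD genes in the 4 groups (horizontal axis), with 1 point per library and a bar at the mean of 2. HOXD13 is lowest and HOXD10 highest in control hypoxia, HOXD11 and HOXD9 are level across groups, HOXD8 is highest in eKD2, and HOXD4 and HOXD3 spread widely between duplicates.

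The eKD1 and eKD2 comparisons ask what the guides to the LOXHD1 enhancer do under hypoxia, against control hypoxia. They share their control libraries with each other and with the hypoxia comparison, so a control library that is low for a gene moves all 3, and the values are set side by side without a test of likeness. HOXD13 was 32.3 and 37.3 FPKM in eKD1 (34.8 ± 3.57, SD, n = 2) and 37.9 and 36.9 in eKD2 (37.4 ± 0.712, SD, n = 2), against 22.7 and 24.2 in control hypoxia. All 4 eKD libraries were above both hypoxic controls and below both normoxic controls. In eKD2, HOXD13 rose by 0.65 relative to control hypoxia (SE 0.0765, 95% interval 0.44 to 0.87, limma adjusted p = 0.0338). In eKD1 the difference was 0.55 (SE 0.108), which passed 0.05 before adjustment but not after it (limma adjusted p = 0.130). The direct comparison of eKD2 with eKD1 gave 0.11 for HOXD13 (SE 0.101, limma adjusted p = 0.573), so a difference between the guides was not detected.

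The call counts of the guides have very different backgrounds. In eKD2, 1 of 7 members was called against 9.61% of all genes, and 3 of 7 passed an unadjusted p under 0.05 by limma, against 32.8% of all genes. In eKD1, 0 of 7 members were called against 0.0651% of all genes, that is 10 genes, and 1 of 7 (HOXD13) passed unadjusted, against 21.7% of all genes. A fit of all 8 libraries with a shared spread called HOXD13 in eKD1 as well (adjusted p = 0.0316, limma), with 4.95% of all genes called. In the comparison of eKD2 with eKD1, 0 of 7 were called against 0.403% of all genes, with 2 of 7 unadjusted (HOXD8 and HOXD3) against 23.6%. These member counts rest on few genes and are not read as a result about the cluster.

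HOXD10 in the eKD cells lay between the 2 control groups. It stood at 59.0 and 57.5 FPKM in eKD1 (58.3 ± 1.09, SD, n = 2) and 55.8 and 55.0 in eKD2 (55.4 ± 0.555, SD, n = 2), against 65.6 and 61.4 in control hypoxia. Both eKD groups were below both hypoxic controls without overlap, but the differences of -0.12 in eKD1 and -0.19 in eKD2 did not pass (limma adjusted p = 0.372 and 0.137).

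HOXD8, a trunk patterning gene, was highest in eKD2 cells. It stood at 21.3 and 18.7 FPKM in eKD2 (20.0 ± 1.83, SD, n = 2), at 14.6 and 15.3 in eKD1 (15.0 ± 0.466, SD, n = 2), and at 12.2 to 13.5 in the 4 control libraries of either oxygen level. Both eKD2 libraries were above all others. The difference from control hypoxia of 0.62 (SE 0.107, 95% interval 0.31 to 0.92) just missed the threshold (limma adjusted p = 0.0522) and passed it in 3 of 8 alternative fits, where the adjusted p ranged from 0.0147 to 0.113. In eKD1 the difference was 0.22 (adjusted p = 0.287), and eKD2 minus eKD1 was 0.39 (SE 0.112, limma adjusted p = 0.165). HOXD-AS2, the antisense transcript whose exons HOXD8 shares, was 3.20 and 4.25 FPKM in eKD2 and 3.16 and 3.76 in control hypoxia, without a called change.

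The remaining members showed no call with either guide. HOXD11 was 30.8 and 36.5 FPKM in eKD1 and 31.4 and 31.1 in eKD2, with 1 eKD1 library above every control. HOXD9 was 10.6 to 11.2 in the 4 eKD libraries, inside the control range. HOXD4 was 4.50 and 3.36 FPKM in eKD1 and 4.91 and 2.39 in eKD2, which overlaps the hypoxic controls. HOXD3 was 5.79 and 4.26 FPKM in eKD1 and 2.97 and 2.51 in eKD2. The eKD2 libraries were both below eKD1, with a difference of -0.68 between the guides (SE 0.203, limma adjusted p = 0.176).

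**Figure D3:**
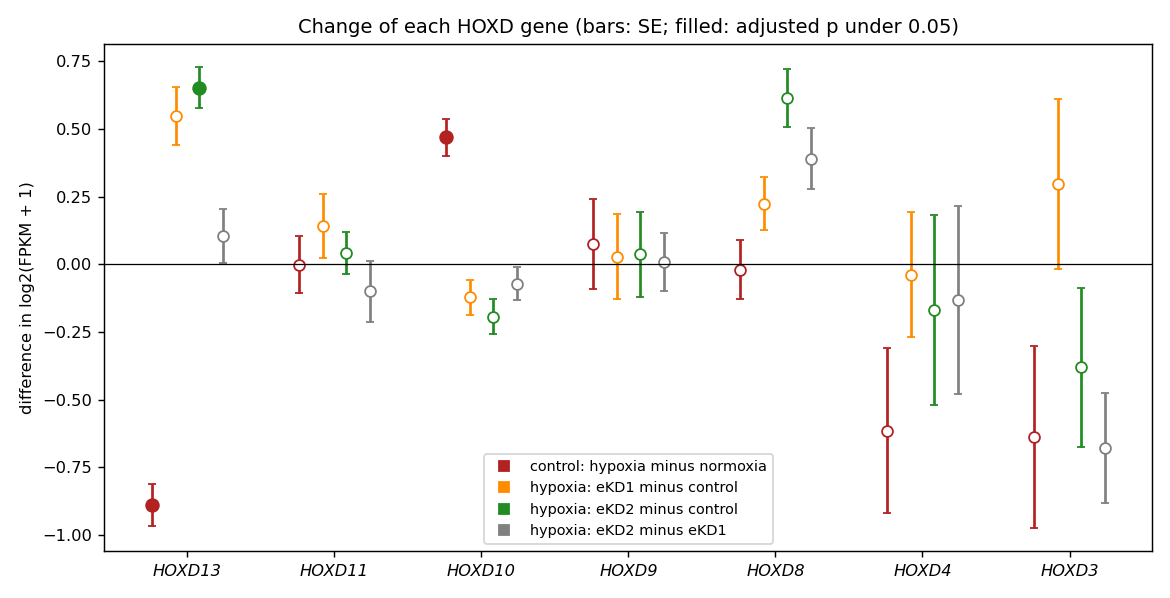
Difference in log2(FPKM + 1) with its SE (vertical axis) for each HOXD gene (horizontal axis) in 4 comparisons, marked by colour, with filled points for adjusted p under 0.05. The filled points are HOXD13 in control hypoxia (-0.89) and in eKD2 (0.65), and HOXD10 in control hypoxia (0.47); the bars of HOXD4 and HOXD3 are the widest.

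Setting the eKD cells in hypoxia against the control cells in normoxia joins guide and oxygen, which cannot be told apart there. For eKD1, 0 of 7 members were called against 10.8% of all genes, and for eKD2 0 of 7 against 19.3%. At an unadjusted p under 0.05 by limma, 2 of 7 passed for eKD1 and 4 of 7 for eKD2, against 33.3% and 38.2% of all genes. The shared fit called 2 and 3 members, against 24.7% and 29.6% of all genes. HOXD13 stayed below its normoxic level in both, by values of -0.34 in eKD1 and -0.24 in eKD2 (limma adjusted p = 0.112 and 0.0920). HOXD10 was above it by 0.35 and 0.28 (adjusted p = 0.0542 and 0.0601). In eKD2, the difference from normoxia was 0.60 for HOXD8 and -1.02 for HOXD3, again just short of the threshold (limma adjusted p = 0.0511 and 0.0632).

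Summed over the 7 genes, the HOXD level stayed between 147.2 and 165.1 FPKM while its composition moved. The sum was 155.7 and 157.7 FPKM in control normoxia, 150.2 and 147.2 in control hypoxia, 157.9 and 165.1 in eKD1 and 164.9 and 157.8 in eKD2. The control hypoxia pair was the lowest of the 4. An exact permutation test of 2 against 2 libraries cannot go below p = 0.333, the value found for hypoxia against normoxia. HOXD13 made up 28.2% ± 0.290 (SD, n = 2) of the sum in control normoxia, 15.8% ± 0.967 in control hypoxia, 21.5% ± 1.53 in eKD1 and 23.2% ± 0.283 in eKD2. HOXD10 made up 29.1%, 42.7%, 36.1% and 34.4% in the same order, and HOXD11 between 19.4% and 20.8%. Thus HOXD13 and HOXD10 were near level in normoxia, whereas under hypoxia HOXD13 came below HOXD11 in both control libraries.

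The ratio of HOXD13 to HOXD10 within a library, picked after their values were seen, does not depend on how libraries are scaled. It was 0.975 and 0.966 in control normoxia, 0.346 and 0.394 in control hypoxia, 0.547 and 0.649 in eKD1 and 0.680 and 0.671 in eKD2. The 4 groups did not overlap, in the order control hypoxia, eKD1, eKD2, control normoxia. On the log2 scale, the ratio differed by -1.40 between control hypoxia and normoxia, by 0.69 between eKD1 and control hypoxia and by 0.87 between eKD2 and control hypoxia, each with the smallest exact permutation p this design allows (0.333). The haematopoietic marker sum given above, nearly all of it PTPRC, has the same order of groups. Among the EwS markers, only STEAP1 has this order in its group means, and all the others, LIPI among them, depart from it. The part of any of these markers in the ratios was not tested.

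**Figure D4:**
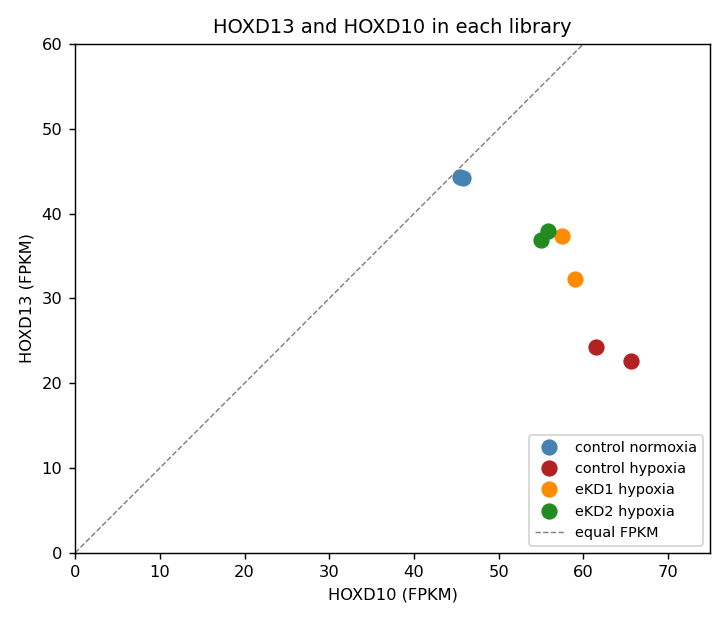
HOXD13 against HOXD10, both in FPKM, with 1 point per library coloured by group and a dashed line where both are equal. The normoxic controls lie close to the line, the hypoxic controls lowest and furthest right, and the 4 eKD libraries between them.

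The direction of these changes in HOXD13 and HOXD10 was the same under each scaling tried. Equal FPKM totals for each library moved the median of all genes in the hypoxia comparison to -0.19, and relative to that median HOXD13 stood at -0.93 and HOXD10 at 0.43. Under this scaling HOXD10 by itself was 0.23 higher and no longer called (limma adjusted p = 0.0596), while HOXD13 was called (adjusted p = 0.00618). HOXD13 in eKD2 was called in 6 of 8 alternative fits and missed the threshold without the variance trend, for example (limma adjusted p = 0.0602). None of the 3 calls held when any 1 library was left out, where 0 of all genes were called.

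Other transcripts of the cluster had low levels. Of 8 symbols listed, aliases included, 6 were in the table and 2 were tested, HOXD12 and HOXD-AS2. Of these, 0 passed in any of the 6 comparisons. HOXD-AS2 was 2.38 to 4.25 FPKM over the 8 libraries, the antisense HAGLR at most 0.896 and HAGLROS at most 0.459. MIR10B, the microRNA gene between HOXD8 and HOXD4, is listed at 0 in all libraries. Poly-A selected libraries are not made to capture microRNAs, so this 0 does not show that the microRNA is absent. Of 16 symbols listed for genes on either side of the cluster, aliases included, 13 were in the table and 11 tested. In control hypoxia 2 of 11 rose and 4 fell, against the 32.2% of all genes. LNPK, on the HOXD13 side, rose by 0.93 (limma adjusted p = 0.0209), from 38.7 and 48.5 FPKM to 78.2 and 89.6. EVX2, the homeobox gene next to HOXD13, had 1.30 to 2.14 FPKM and MTX2, past HOXD1, 54.0 to 92.5, neither with a call in hypoxia (adjusted p = 0.174 and 0.489, limma).

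Summed over its 9 genes, the HOXD cluster had a median of 158.7 FPKM over libraries (range 148.3 to 165.9), against 133.4 for HOXC, 91.0 for HOXB and 12.3 for HOXA. The range of HOXC, 120.6 to 160.8 FPKM, overlapped that of HOXD. The 30 genes of the other clusters show what the paralogues of the HOXD members did. Of these, 20 were tested, and in control hypoxia 3 rose and 5 fell, against 32.2% of all genes called. HOXC10, the paralogue of HOXD10, rose too, from 12.9 and 11.6 FPKM to 24.7 and 22.2 (0.88, limma adjusted p = 0.0152), while HOXA10 did not pass (0.26, adjusted p = 0.238). Among the paralogues of HOXD13, HOXB13 fell from 16.0 and 16.4 FPKM to 10.3 and 9.97 (-0.63, adjusted p = 0.0209, limma). HOXC13 rose from 7.91 and 7.77 to 12.5 and 12.6 (0.61, adjusted p = 0.0252, limma). HOXA13, with a mean of only 1.26 FPKM, did not pass (0.31, adjusted p = 0.230, limma). HOXC11, the paralogue of HOXD11, had no detectable change, at -0.07 (adjusted p = 0.617, limma). The third gene that rose was HOXB9, and the others that fell were HOXB7, HOXB6, HOXC8 and HOXC6. The change of HOXD13 in hypoxia was thus not shared by all genes of its paralogue group.

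With the guides, 0 of the 20 other HOX genes were called in eKD1, against 0.0651% of all genes (7 unadjusted by limma, against 21.7%). In eKD2 2 of the 20 were called, against 9.61% of all genes. These 2 were HOXB9, which rose by 0.92 to 5.96 and 5.91 FPKM (limma adjusted p = 0.0376), and HOXC6, which rose by 0.41 (adjusted p = 0.0421). HOXB13 was 17.5 and 18.3 FPKM in eKD1 and 14.7 and 13.7 in eKD2, above the hypoxic controls but without a call (adjusted p = 0.108 and 0.0733). Of 12 listed HOX long non-coding RNAs, 5 were tested and 2 rose in control hypoxia, against 32.2% of all genes called. They were HOTAIR of the HOXC cluster (0.35, adjusted p = 0.0494, limma) and HOXC-AS1 (2.07, adjusted p = 0.0144, limma).

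**Figure D5:**
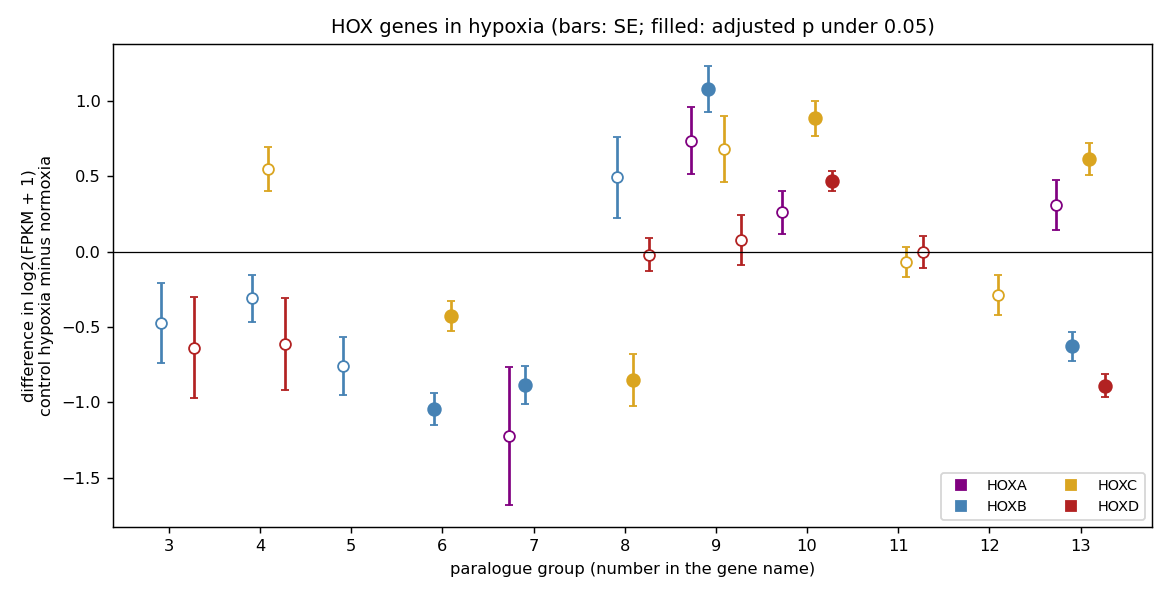
Difference in log2(FPKM + 1) between control hypoxia and normoxia with its SE (vertical axis) for the 7 HOXD genes and the 20 tested genes of the other clusters, by the number in its name (horizontal axis) and coloured by cluster, filled where the adjusted p was under 0.05. In group 13 HOXD13 and HOXB13 lie below 0, and HOXC13 and the uncalled HOXA13 above it. In group 10 HOXD10, HOXC10 and the uncalled HOXA10 lie above 0.

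HOX proteins bind DNA with partners of the TALE family (PBX, MEIS and PKNOX), of which 8 of 9 listed were tested. Their calls stand beside 32.2% of all genes called in control hypoxia and 9.61% in eKD2. In control hypoxia 1 rose (PBX4) and 2 fell, MEIS1 from 234.7 and 208.2 FPKM to 116.0 and 129.4 (-0.85, limma adjusted p = 0.0119) and PBX2 (-0.59, adjusted p = 0.0101). In eKD2 3 of 8 rose, MEIS1 to 300.4 and 293.7 FPKM (1.27, limma adjusted p = 0.0273), MEIS2 (1.08, adjusted p = 0.0284) and PKNOX1 (1.48, adjusted p = 0.0464). MEIS1 shares with HOXD13 the fall in control hypoxia and the higher level in eKD2 than in control hypoxia, but in eKD2 it lay above normoxia whereas HOXD13 lay below it.

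The chromatin regulators of HOX clusters were also tabulated. Of 27 polycomb genes, which keep HOX genes silent, 2 rose and 8 fell in control hypoxia, among the latter the methyltransferase EZH2 (-0.28, limma adjusted p = 0.0415) and BMI1 (-0.66, adjusted p = 0.0109). In eKD2 3 rose and 1 fell. Of 16 genes of the opposing trithorax group and the H3K27 demethylases, 1 rose and 6 fell in control hypoxia, with KMT2D at -1.13 (adjusted p = 0.0111, limma). Of 7 genes for CTCF and cohesin, which set the loops around the HOXD cluster, 7 fell in control hypoxia and 2 rose in eKD2. STAG1 fell from 26.4 and 26.4 FPKM to 10.5 and 12.1 (-1.16, limma adjusted p = 0.00950). The lists were picked with the cluster in mind and their share called is read against 32.2% in hypoxia and 9.61% in eKD2.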

How the data were processed

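RNA of 8 SK-N-MC libraries, 4 groups of 2 named from the sample titles, was analysed from the expression table of the series. The authors aligned single-end 75-base reads of poly-A selected, unstranded libraries with STAR to GRCh37 and made gene values with cufflinks and Cuffnorm (submitters' processing notes and the study's methods). The deposited unit is FPKM, a length- and depth-scaled fragment number computed by the authors. The scaling between libraries is not given in the sources used here. Read counts were used for the study's own tests, whereas only FPKM were analysed here, with limma. Since FPKM hold no read totals, the absolute depth is unknown and no counting interval or floor was computed. Relative depth was read from the steps of low values.

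Values were analysed as log2(FPKM + 1), which understates changes of low genes. The filter kept genes that reached 1 FPKM in 2 or more libraries. Each of 6 comparisons of 2 against 2 libraries was fitted alone with limma 3.58.1 in R 4.3.3 with a variance trend, p-values were two-sided and adjusted by Benjamini-Hochberg over the 15372 genes tested, with calls made at an adjusted p under 0.05. The script was tested on simulated data made from the hypoxia comparison, in which estimates were close to the truth. Sizes of change both below and above that of any member in hypoxia were tried there. Only changes of the largest size were called, and not all of these. Far fewer genes were changed in the simulation than were called in the data, and the adjustment depends on that number. The simulation therefore does not show which changes would be called here. A change that misses the threshold is not shown to be absent. The fits were repeated without the filter, with a mean of 5 FPKM as filter, with 0.1 as pseudocount, and with median-of-ratios scaling, equal totals, a shared fit of 8 libraries, a replicate block, no variance trend or each library left out. Named genes were the 7 members, LOXHD1, in each list up to 4 genes of highest mean and up to 4 called genes per comparison by size, and the 3 genes of most similar profile per member. Other HOXD transcripts, paralogues, EVX2, MTX2 and markers outside this rule were named after their values were seen. The members and lists were chosen with earlier results of these data known. Gene positions are from GENCODE on GRCh37 and promoter sequences from RefSeq on GRCh38.p14.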

Additional observations from a re-analysis of the deposited data

How the results depend on the processing

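HOXD13 in control hypoxia was called in 8 of 8 alternatives that kept all libraries (limma adjusted p 0.000959 to 0.0392), HOXD10 in 6 of 8 (0.00265 to 0.0596) and HOXD13 in eKD2 in 6 of 8 (0.00785 to 0.0939), all in the same direction. Leaving out 1 library, whichever it was, left 1 group with a single library assumed to vary like the other, and in these 24 fits 0 of all genes were called (1808 to 6167 genes at an unadjusted p under 0.05, limma), so the members' 0 to 0 calls there say nothing about stability. Without 1 library HOXD13 ranged from -0.94 to -0.84 and HOXD10 from 0.42 to 0.52 in hypoxia, and HOXD13 in eKD2 from 0.61 to 0.70. The replicate numbers did not pair the libraries (correlations of deviations -0.0574 to 0.126), and with the number as a replicate block 1 member was called in hypoxia (HOXD13), 0 in eKD2 and 0 in eKD1, with 2570, 0 and 0 of all genes.

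The number of members called is given with the share of all genes called in the same fit. With equal totals it was 1 in hypoxia (36%) and 2 in eKD2 (12.3%). In eKD2 it was 2 with the filter at a mean of 5 FPKM (16.5%, HOXD3 and HOXD4 then drop out), 2 in the shared fit (16.9%) and 0 without the variance trend (0.182%). In eKD1 the shared fit called 1 (4.95%). Against normoxia, eKD1 had 1 with a pseudocount of 0.1 (10.5%), 1 with the filter at 5 (17.1%) and 2 in the shared fit (24.7%), and eKD2 1 without a filter (4.64%), 1 with the filter at 5 (25.4%), 1 with equal totals (19.8%) and 3 in the shared fit (29.6%). The median change of the members was -0.24 with equal totals in hypoxia. For eKD2 minus eKD1 it was 0.0082 with the filter at 5, -0.12 with median-of-ratios scaling and -0.081 to 0.0033 without 1 library. For eKD1 against normoxia it was -0.051 with equal totals and 0.020 to 0.098 without 1 library. For eKD2 against normoxia it was 0.11 with the filter at 5, -0.029 with median-of-ratios scaling, -0.088 with equal totals and -0.054 to 0.048 without 1 library. The cause was not tested.

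Only uncalled values changed sign. With equal totals these were HOXD9 in hypoxia (-0.15), HOXD4 in eKD1 (0.018), HOXD11 (-0.024) and HOXD9 (-0.051) in eKD1 against normoxia, and HOXD11 (-0.088) and HOXD9 (-0.011) in eKD2 against normoxia. With median-of-ratios scaling they were HOXD11 (-0.027) and HOXD9 (-0.029) in eKD2, HOXD9 in eKD2 minus eKD1 (-0.037) and HOXD11 in eKD2 against normoxia (-0.029). Without 1 library, hypoxia gave HOXD11 -0.097 to 0.095, HOXD8 -0.090 to 0.050 and HOXD9 -0.092 to 0.24. eKD1 gave HOXD9 -0.14 to 0.19, HOXD4 -0.23 to 0.16 and HOXD3 -0.051 to 0.65. eKD2 gave HOXD9 -0.13 to 0.20, HOXD11 -0.0099 to 0.096 and HOXD4 -0.57 to 0.23. eKD2 minus eKD1 gave HOXD4 -0.53 to 0.27, HOXD11 -0.22 to 0.022 and HOXD9 -0.023 to 0.039, and eKD2 against normoxia HOXD11 -0.054 to 0.14. Calls over all genes moved by more than 1.5 times between fits. In hypoxia 4946 became 3024 without a filter and 2570 with the block, in eKD2 1477 became 853 without a filter, 2601 in the shared fit and 28 without the trend, and in eKD1 10 became 206 without a filter and 761 in the shared fit.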

Other observations

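Retinoic acid, a signal known to switch on HOX genes, acts through binding proteins, receptors and degrading enzymes, of which 7 of 11 listed genes were tested. In control hypoxia 2 of 7 rose and 1 fell, against 32.2% of all genes called. CRABP1, a cytoplasmic retinoic acid binding protein, rose from 68.8 and 64.9 FPKM to 161.9 and 165.0 (1.28, limma adjusted p = 0.00653), and CRABP2 rose from 0.954 and 1.30 to 8.75 and 11.1 (2.36, adjusted p = 0.00852). CYP26B1, which breaks retinoic acid down, fell from 49.6 and 44.0 FPKM to 22.7 and 17.0 (-1.21, limma adjusted p = 0.0178). In eKD2, CRABP1 fell to 95.0 and 102.3 FPKM (-0.72, adjusted p = 0.0273, limma) and the receptor gene RARG rose (0.62, adjusted p = 0.0362).

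The genes with the profile most like each HOXD gene were ranked by Pearson's r of log2(FPKM + 1) over the 8 libraries, among genes with a mean of at least 5 FPKM. The 8 points fall into 4 groups and share controls, so r is a description. For HOXD13 they were SOX4 (0.994), MTMR2 (0.991) and EIF6 (0.990), and for HOXD10 MGST3 (0.994), NINJ1 (0.994) and BEX3 (0.993). HOXD8 was followed most closely by NCKAP1L (0.976), SERINC1 (0.975) and NUMB (0.973), HOXD4 by ERGIC2 (0.973), MRPL13 (0.972) and DDX19A (0.951), and HOXD3 by SNAPC4 (0.957), GLMN (0.946) and RPAIN (0.945). The level genes had looser matches, HOXD11 with SH3KBP1 (0.937), ZNF155 (0.899) and PITPNA (0.888), and HOXD9 with SHCBP1 (0.868), TTC23 (0.867) and DHX57 (0.845).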
